A study of Rattus norvegicus with 6 samples.

Results

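Intercalated cells are the acid and base secreting cells of the kidney's connecting tubule and collecting duct. The genes described here are 9 that encode their acid-base machinery: the anion exchangers Slc4a1 and Slc26a4, the proton pump subunits Atp6v1b1 and Atp6v0a4, the ammonia transporters Rhcg and Rhbg, the carbonic anhydrases Car2 and Car4, and the transcription factor Foxi1. They were chosen by name from the gene symbols that the array files give, and the rule itself uses no measured value. They are 9 of the 35561 gene names on the array. Each had a probe, 8 of them 1 and Slc4a1 2, so that 10 of the 41012 probes other than controls belong to them. All 10 were among the 30896 probes kept for testing.

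The kidneys came from young Han:SPRD rats, a strain in which the Cy allele, a missense mutation of Anks6, causes polycystic kidney disease. Pools of renal RNA from homozygous Cy/Cy rats and from heterozygous Cy/+ rats, at 7 and at 3 days of age, were labelled with Cy5 and each hybridised together with a Cy3-labelled pool of age-matched wild-type (+/+) kidneys on an Agilent array with 2 colours. A further array at each age carried Cy5-labelled RNA that the labels also call +/+ kidney. Each group therefore had 1 array per age, 6 arrays in all, so that n = 2 below means 1 array of each age. All groups were untreated animals of the same strain, the number of animals in a pool is not given, and the p-values rest on the spread among arrays, which may be technical.

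Type A intercalated cells secrete acid: a vacuolar proton pump in their apical membrane moves protons into the urine, and Slc4a1 returns the matching bicarbonate to the blood. Type B cells secrete base through the apical chloride and bicarbonate exchanger Slc26a4. Rhcg and Rhbg carry ammonia across these cells, carbonic anhydrases supply protons and bicarbonate from carbon dioxide, and Foxi1 switches on many of these genes, as shown in mice. Several of the genes are also used elsewhere: Slc4a1 and Car2 in red blood cells, Car4 in the proximal tubule, and Rhcg and Rhbg in neighbouring tubule cells.

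Across all probes, the SD of the log2 ratio was 0.156 and 0.174 on the Cy/Cy arrays (7 and 3 days), 0.235 and 0.317 on the Cy/+ arrays, and 0.939 and 1.1 on the arrays labelled +/+. The arrays labelled +/+ went against their label. Their Cy5 signal for 8 skeletal muscle genes summed to 1090000 at 7 days, against 62000 in Cy3 of the same array, and for 8 genes of the thick ascending limb to 16300, against 366000. Cy3 of these arrays stood apart as well: the muscle sum of 62000 there compares with 2300 in Cy3 of each mutant array of that age, and at 3 days 34400 compares with 1330 and 1380. The cause was not tested. They are called the arrays labelled +/+ here and are kept apart from the comparison of each mutant pool with its own Cy3 reference. All arrays of an age shared a slide and each genotype kept the same position on it, so age and slide, and genotype and position, cannot be told apart. On every mutant array the mutant pool was in Cy5 and the reference in Cy3, with no dye swap. A probe's difference between mutant and reference therefore cannot be told apart from an effect of the dyes on that probe.

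The probes are 60 bases long and are placed by the file headers on rat build rn3. Slc4a1 was read at chr10:91469722-91469781 (the brighter probe) and chr10:91473198-91473770 (the dimmer probe), both on the minus strand, and Slc26a4 at chr6:49392369-49392428 (minus). Atp6v1b1 was read at chr4:118187831-118188055 (plus) and Atp6v0a4 at chr4:65887971-65888030 (minus). The ammonia transporters were read at chr1:135441350-135445463 for Rhcg and chr2:180272531-180273041 for Rhbg, both minus. The remaining probes lie at chr2:88022701-88022760 for Car2 (minus), chr10:73251885-73251944 for Car4 (plus) and chr10:19188360-19188419 for Foxi1 (minus). No rn3 gene annotation was used, so exon and UTR positions are not stated. For 4 probes the genomic interval is longer than the probe (225 bases for Atp6v1b1, 511 for Rhbg, 573 for the dimmer Slc4a1 probe and 4114 for Rhcg), so that the probe is split over the genome. These are shown, because 3 of them read genes that fell in Cy/+ kidneys and the fourth is the dimmer reading of another such gene:
Atp6v1b1: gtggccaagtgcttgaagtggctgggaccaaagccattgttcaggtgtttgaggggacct
Rhcg: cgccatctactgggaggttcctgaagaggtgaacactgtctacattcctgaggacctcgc
Rhbg: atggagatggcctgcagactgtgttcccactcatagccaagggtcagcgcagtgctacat
Slc4a1 dimmer probe: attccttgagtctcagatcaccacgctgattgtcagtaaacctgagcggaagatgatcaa

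In the +/+ reference all 10 probes were well above background on all 6 arrays, so the kidneys of both ages showed transcripts of all 9 genes. On the log2 scale of normalised signal, and over the 3 hybridisations of the reference at each age, Rhcg averaged 12.65 ± 0.06 at 7 days and 12.96 ± 0.03 at 3 days (SD, n = 3), and Slc26a4 13.69 ± 0.04 and 13.04 ± 0.02. The dimmest readings were those of Foxi1, at 7.54 ± 0.18 and 7.42 ± 0.25, and of the dimmer Slc4a1 probe, at 6.86 ± 0.13 and 6.85 ± 0.13. Without the array labelled +/+, whose Cy3 stands apart for muscle genes, the means at 7 and 3 days were 12.69 and 12.97 for Rhcg, 13.68 and 13.05 for Slc26a4, 7.64 and 7.56 for Foxi1 and 6.91 and 6.92 for the dimmer Slc4a1 probe. The sources do not say whether an age used a single reference pool, so the SD is no measure of the spread between animals. Probes differ in brightness for reasons of their own, and levels are compared only within a probe.

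In Cy/+ kidneys, 5 of the 9 genes were lower than in the +/+ reference. Slc4a1, Car4, Rhcg, Atp6v1b1 and Rhbg fell, by 1.39- to 2.01-fold, while Slc26a4, Atp6v0a4, Foxi1 and Car2 did not pass the test. In number, 5 of the 10 probes passed an adjusted p of 0.05 as lower (limma, Benjamini-Hochberg over all 30896 probes), where 3.27% of all probes did, and 0 passed as higher, where 4.58% did. The median over the 9 genes was -0.48 on the log2 scale, against 0 over all probes. In whole-kidney RNA, fewer cells of a type and less RNA per cell cannot be told apart.

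The exchanger Slc4a1 had the lowest mean log2 ratio of the set. Its brighter probe had a normalised log2 signal of 9.97 in 7-day Cy/+ kidneys, against 10.79 in the reference on the same array, and of 10.31 in 3-day Cy/+ kidneys, against 11.51. The ratios of -0.82 and -1.20 averaged -1.01 ± 0.12 (SE, n = 2, 2.01-fold lower, adjusted p = 0.012). The SE here and below is the moderated one of the limma fit. It draws on all arrays of the fit and on the spread of other probes, and can be smaller than the spread of the quoted ratios. The dimmer probe gave ratios of -0.14 and -0.41, a mean of -0.27 ± 0.09 that did not pass (adjusted p = 0.104). The probes of this gene thus agreed in direction on all 4 mutant arrays, while their agreement in size depended on the processing. From the software's log ratio the dimmer one stood at -0.41 in Cy/Cy kidneys, beside -0.39 for the brighter, and at -0.88 in Cy/+ kidneys, beside -1.05, and under median centring it passed as lower in both (-0.41, adjusted p = 0.0123, in Cy/Cy and -0.43, adjusted p = 0.00641, in Cy/+). The dimmer probe was not well above background in Cy5 of the 3-day Cy/+ array.

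Rhcg, the ammonia transporter of the apical and basolateral membrane, had log2 ratios of -0.58 in 7-day and -0.73 in 3-day Cy/+ kidneys, a mean of -0.65 ± 0.10 (SE, n = 2, adjusted p = 0.0207). Rhbg, its basolateral relative, had ratios of -0.45 and -0.51 and a mean of -0.48 ± 0.08 (adjusted p = 0.0289). Both ages thus lay close together for both transporters. Car4, the carbonic anhydrase tethered to the outer cell surface, had ratios of -0.60 and -0.72 and a mean of -0.66 ± 0.12 (adjusted p = 0.03). The cytosolic Car2 stood on the other side of 0, at 0.30 and 0.10, with a mean of 0.20 ± 0.10 (adjusted p = 0.237).

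Of the proton pump subunits, Atp6v1b1 passed the test and Atp6v0a4 did not, and the difference between them was not tested. Atp6v1b1, the B1 subunit of the catalytic domain, had log2 ratios of -0.42 in 7-day and -0.69 in 3-day Cy/+ kidneys, a mean of -0.56 ± 0.11 (SE, n = 2, adjusted p = 0.0355). Atp6v0a4, the a4 subunit of the membrane domain, had ratios of -0.03 and -0.39 and a mean of -0.21 ± 0.10 (adjusted p = 0.218). Slc26a4, the exchanger of the base-secreting type B cell, had ratios of 0.03 and -0.61 and a mean of -0.29 ± 0.18 (adjusted p = 0.324), so that its lower value rested on the 3-day array. Foxi1 had ratios of -0.18 and -0.01 and a mean of -0.09 ± 0.11 (adjusted p = 0.61), with a 95% interval of -0.35 to 0.16.

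Both the calls and, under median centring, the sizes in Cy/+ kidneys depended on the processing. From the scanner software's own log ratio the means of the 5 genes were -0.49 to -1.05 and no probe on the array passed (adjusted p of these 5 0.121 to 0.135), and with all 6 arrays in 1 fit their adjusted p was 0.078 to 0.168. Under median centring, which left the median of all probes at 0.19, Slc4a1 (-0.58) and Atp6v1b1 (-0.37) stayed past the threshold as lower, Rhcg, Rhbg and Car4 stood at -0.08, -0.01 and -0.12 and did not pass, and Car2 passed as higher (0.86). Relative to that median the 5 genes lay at -0.76, -0.56, -0.27, -0.20 and -0.31. Without the 3-day Cy/+ array only the brighter Slc4a1 probe passed (-0.82, adjusted p = 0.0204).

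**Figure D1:**
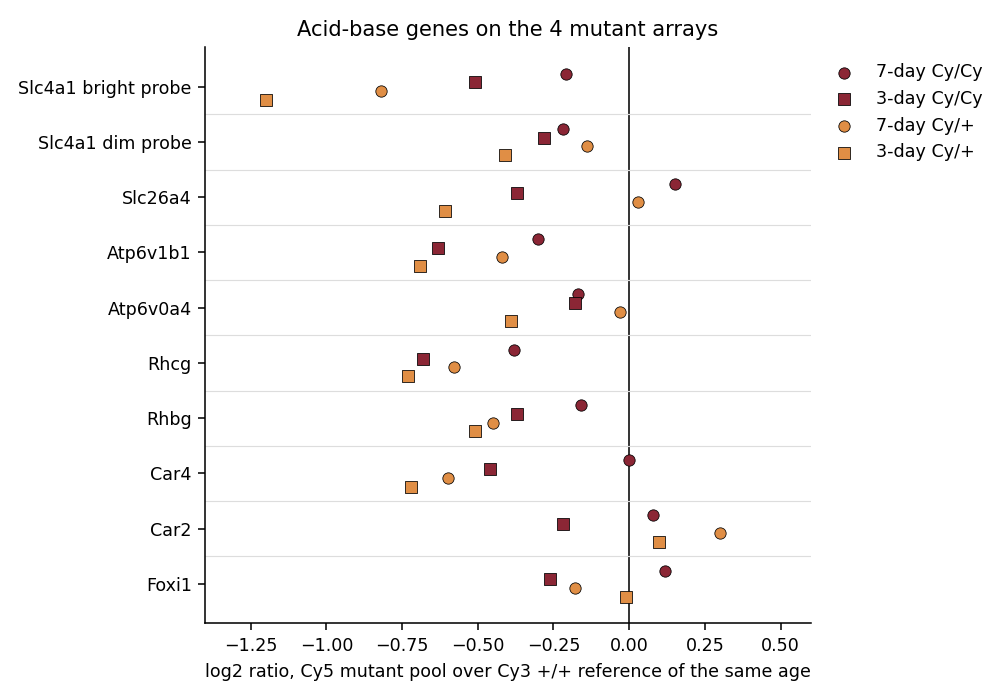
Log2 ratio of each probe on the 4 mutant arrays (horizontal axis, Cy5 mutant pool over the Cy3 +/+ reference of the same age); dark red marks Cy/Cy and orange Cy/+, circles 7 days and squares 3 days, 1 array each. Atp6v1b1, Rhcg, Rhbg and both Slc4a1 probes lie left of 0 on all 4 arrays, whereas Slc26a4 lies right of 0 at 7 days (0.15 and 0.03) and left of it at 3 days (-0.37 and -0.61).

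In Cy/Cy kidneys the mean log2 ratios of Slc4a1, Car4, Rhcg, Atp6v1b1 and Rhbg were also below 0, at -0.23 to -0.53, and no member passed the test. The fit called 0% of all probes as higher and 0% as lower. All 9 genes had a mean below 0, with a median of -0.23 against 0.01 over all probes, and 5 of the 10 probes had an unadjusted p under 0.05, where 8.65% of all probes did. Those were Rhcg, Atp6v1b1, Rhbg and both Slc4a1 probes.

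Rhcg was the lowest member, with log2 ratios of -0.38 in 7-day and -0.68 in 3-day Cy/Cy kidneys (mean -0.53 ± 0.10, SE, n = 2, limma adjusted p = 0.328). Atp6v1b1 had ratios of -0.30 and -0.63 (mean -0.46 ± 0.11, adjusted p = 0.447), and the brighter Slc4a1 probe -0.21 and -0.51 (mean -0.36 ± 0.12, adjusted p = 0.521). For each of the 3 the 3-day array gave the lower ratio. Rhbg had ratios of -0.16 and -0.37, and Car4 of 0.00 and -0.46, so that for Car4 only the 3-day array was below 0. The means of the others were -0.18 for Atp6v0a4, -0.11 for Slc26a4, and -0.07 for both Foxi1 and Car2. Under median centring the median of all probes stood at 0.17, and the brighter Slc4a1 probe, Rhbg, Car4, Slc26a4, Atp6v0a4 and Car2 had means above 0 (0.02 to 0.45).

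The scanner software gives each spot a p-value, and those in the authors' deposited table also differed between the arrays. It was under 0.01 for 0 of the 10 probes on the 7-day Cy/Cy array, where 1.3% of all probes were, and for 2 (Atp6v1b1 and Rhcg) on the 3-day Cy/Cy array, where 1.76% were. In the authors' deposited table, the count was 4 on the 7-day Cy/+ array (7% of all probes), and 6 on the 3-day Cy/+ array (10.2%). Atp6v1b1 and Rhcg were under it on 3 of the 4 mutant arrays.

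Over both genotypes, 6 of the 10 probes had a log2 ratio below 0 on all 4 mutant arrays, where 17.5% of all probes did. They were the probes of Slc4a1, Atp6v1b1, Atp6v0a4, Rhcg and Rhbg. None was above 0 on all 4, where 21% of all probes were. The dyes were the same way round on all 4 arrays, so an effect of the dyes on a probe would give the same sign on each.

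Cy/Cy and Cy/+ kidneys were compared through the same reference, and no member differed past the threshold. The fit called 0% of probes as higher and 0% as lower in Cy/Cy than in Cy/+, and 6.11% had an unadjusted p under 0.05, among them 2 of the 10. One was the brighter Slc4a1 probe, whose mean ratio of -0.36 in Cy/Cy and -1.01 in Cy/+ kidneys gave a difference of 0.65 ± 0.17 (SE, 95% interval 0.25 to 1.05, adjusted p = 0.738). The other was Car4, at -0.23 and -0.66, with a difference of 0.43 ± 0.16 (interval 0.04 to 0.83, adjusted p = 0.811). For Rhcg the difference was 0.12, with an interval of -0.20 to 0.45, and for Atp6v1b1 0.09 (-0.27 to 0.46), and both intervals span 0. Nothing measured here checks which mutant pool is homozygous.

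The rest of the proton pump gave little change beside these genes. Of 22 other proton pump subunits measured, 1 fell in Cy/+ kidneys, none rose, and the median was -0.02. The one that fell was Atp6v0d2 (-0.55 ± 0.11, SE, n = 2, limma adjusted p = 0.0385), the d2 subunit. Among 16 other genes of intercalated cells 3 fell and none rose, with a median of -0.27. Among the 3 were Bsnd, an accessory subunit of chloride channels, at -0.48 (adjusted p = 0.0211), and Dmrt2, a transcription factor, at -0.46 (adjusted p = 0.0488). In Cy/Cy kidneys none of these lists had a call, and Atp6v0d2 stood at -0.27, Bsnd at -0.23 and Dmrt2 at -0.23.

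Other carbonic anhydrases moved in both directions in Cy/+ kidneys, with a median of 0.06 over 11 genes. The mitochondrial Car5b rose (0.42, adjusted p = 0.0309) and Car11, a relative that has lost the enzyme activity, fell (-0.52, adjusted p = 0.0427). Of 9 genes listed for bicarbonate and ammonia handling in the proximal tubule, Ggt1 rose (0.40, limma adjusted p = 0.0495). Slc4a2, another anion exchanger on that list, fell (-0.50, adjusted p = 0.0415), and the list's median was -0.16. Whole-kidney RNA does not place either change in that segment. None of 10 genes of the principal cell, the neighbour of the intercalated cell in the same duct, passed in either direction, with a median of -0.12. The largest means among them were 0.39 for Aqp3 and -0.34 for Kcnj1.

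Segments upstream of the collecting duct differed among themselves in Cy/+ kidneys. Of 8 genes of the thick ascending limb 2 fell, among them Slc12a1 (-0.71, adjusted p = 0.0327), with a median of -0.30 over the list, and of 6 genes of the distal convoluted and connecting tubule 4 fell, with a median of -0.43. The lowest of these were Calb1 and S100g, calcium-binding proteins, at -1.65 and -1.28. Of 11 genes of the proximal tubule 3 rose, Lrp2 (0.87), Cubn (0.51) and Fbp1 (0.48), and 1 fell, Miox (-0.84), with a median of -0.05 (adjusted p of the 4 0.0248 to 0.0435). Of 6 podocyte genes 2 fell, Ptpro (-0.65) and Nphs1 (-0.58), with a median of -0.35. The median of the acid-base genes was -0.48.

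**Figure D2:**
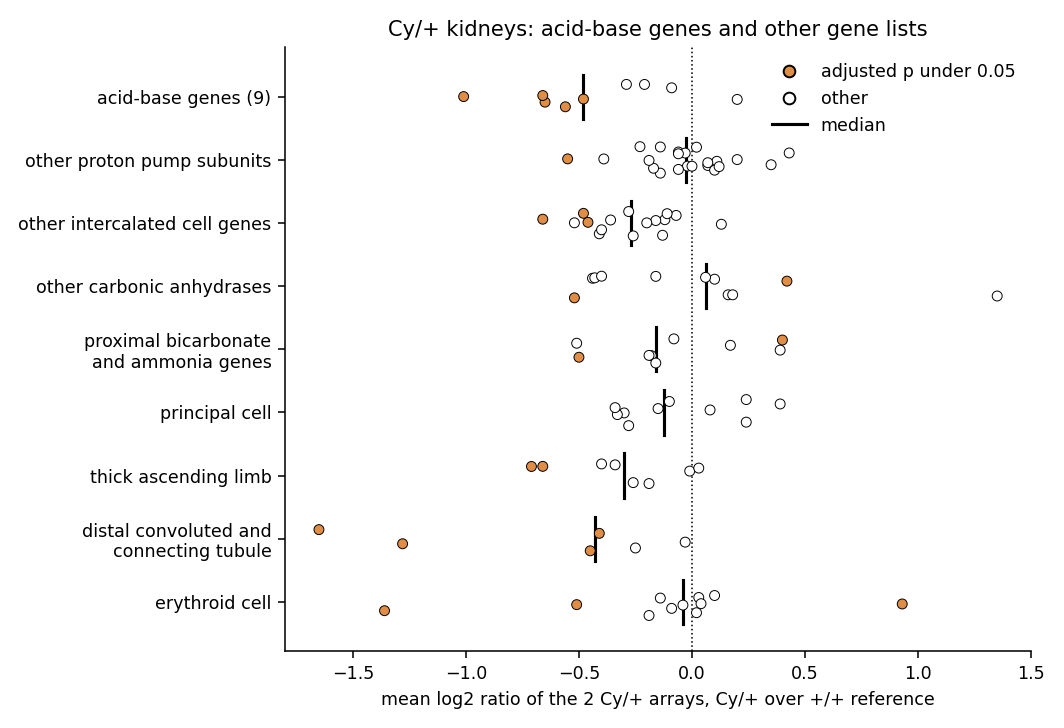
Mean log2 ratio of the 2 Cy/+ arrays for each gene (horizontal axis), by gene list from top to bottom, with the acid-base genes at the top (brightest probe of each of the 9); orange points passed an adjusted p of 0.05, white points did not, and the bar is the list's median. The medians are -0.48 for the acid-base genes, -0.02 for the other pump subunits and -0.27 for the other genes of intercalated cells.

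Slc4a1 and Car2 are also red blood cell genes, and red blood cell transcripts differed between the pools. Of 11 erythroid genes measured, 2 fell in Cy/+ kidneys, Hbb (-1.36 ± 0.13, SE, n = 2, adjusted p = 0.00734) and Alas2 (-0.51, adjusted p = 0.0298), and 1 rose, Spna1 (0.93, adjusted p = 0.00865), with a median of -0.04. In Cy/Cy kidneys none passed, and Hbb stood at -0.69. The summed Cy5 signal of the list was 12200 and 16600 in Cy/Cy kidneys (7 and 3 days), against 15800 and 24800 in the reference, and 9540 and 11600 in Cy/+ kidneys, against 16100 and 23800. Other defining markers of the lineage, Rhag, Klf1 and Gata1, stood at -0.09, -0.14 and -0.04 in Cy/+ kidneys, and 2 or 3 of the 11 genes were not well above background in Cy5 on these arrays. The part of red blood cell RNA in the values of Slc4a1, Car2 or any other member was not tested.

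Against the arrays labelled +/+, most members were much higher in both mutants. In Cy/Cy kidneys 6 of the 10 probes were higher, where 10.6% of all probes were, and 2 were lower, where 18.4% were; in Cy/+ kidneys the numbers were again 6 (11% of all probes) and 2 (18.6%). The 6 higher genes were Slc26a4, Rhcg, Atp6v0a4, Atp6v1b1, Rhbg and Car4. Slc26a4 differed most, by 3.94 ± 0.31 in Cy/Cy and 3.76 ± 0.31 in Cy/+ kidneys on the log2 scale (SE, n = 2, adjusted p = 0.000787 and 0.00093), followed by Rhcg at 3.30 and 3.18 and Atp6v0a4 at 2.78 and 2.75.

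Atp6v1b1 was not well above background in Cy5 of either array labelled +/+, so the size of its difference from them is uncertain. Its observed Cy5 signal was 3.91-fold higher in Cy/Cy and 3.79-fold higher in Cy/+ kidneys, which leaves out the Cy3 reference of each array. The fitted log2 differences were 1.72 and 1.63 (3.3- and 3.1-fold, limma adjusted p = 0.00498 and 0.00605). From the software's log ratio they were 4.08 and 3.93. Slc4a1 ran the other way, at -1.52 in Cy/Cy and -2.17 in Cy/+ kidneys for its brighter probe (adjusted p = 0.00188 and 0.000594). Foxi1 (0.52 and 0.50) and Car2 (-0.61 and -0.34) did not pass. Car4 in Cy/+ kidneys was the least firm of these calls: it was lost without the 3-day Cy/+ array (0.56, adjusted p = 0.225), the 7-day Cy/+ array (0.67, 0.153) or the 7-day array labelled +/+ (0.47, 0.0609). In Cy/Cy kidneys it was lost without the 7-day Cy/Cy array (0.84, adjusted p = 0.0674). Atp6v1b1 did not pass without the 3-day array of either mutant (1.54, adjusted p = 0.0649, in Cy/Cy and 1.40, adjusted p = 0.0655, in Cy/+ kidneys), and the dimmer Slc4a1 probe did not pass without either Cy/Cy array (-0.84 and -0.81) or without the 3-day Cy/+ array (-0.70). Car2 passed as lower without the 7-day array labelled +/+ (-0.88 in Cy/Cy and -0.61 in Cy/+ kidneys), and Foxi1 as higher without the 3-day one (0.63 and 0.61). From the software's log ratio Foxi1 passed as higher too, at 1.40 in Cy/Cy and 1.28 in Cy/+ kidneys (adjusted p = 0.0141 and 0.0185). Car2 also passed as lower in Cy/Cy kidneys with the stricter filter (adjusted p = 0.0463) and without the age term (adjusted p = 0.0459).

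Seen on those arrays alone, 6 of the 10 probes were at least 2-fold lower in Cy5 than in the Cy3 reference at both ages, where 2.82% of all probes were. Rhcg stood there at a log2 ratio of -3.75 (7 days) and -3.91 (3 days), and Slc26a4 -4.33 and -3.76. The Slc4a1 probes stood above 0, at 1.12 and 1.20 for the brighter and 0.52 and 0.62 for the dimmer. The erythroid list summed to 45000 and 62400 in Cy5 of these arrays, against 14500 and 20700 in Cy3, and all its 11 genes were lower in the mutants. With these values, the differences against these arrays cannot be read as mutant against wild-type kidney. Cy/+ and Cy/Cy kidneys share these 2 arrays, and the values of both are given side by side without a further comparison.

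**Figure D3:**
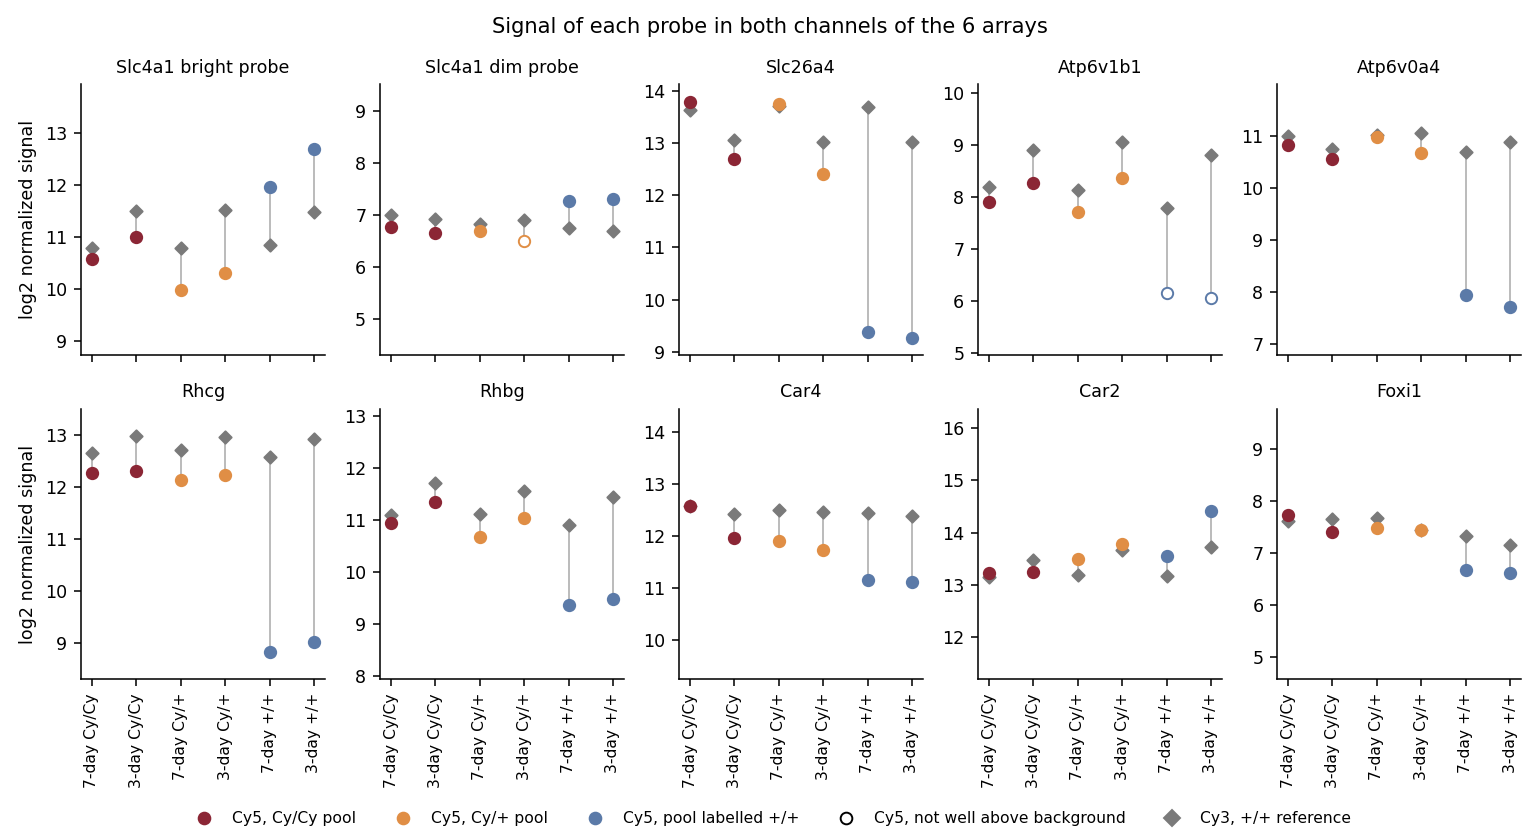
Normalised log2 signal of each probe (vertical axis, 5.2 log2 units in every panel) on the 6 arrays: circles are Cy5, in dark red for Cy/Cy, orange for Cy/+ and blue for the pools labelled +/+, and grey diamonds are the Cy3 +/+ reference on the same array; open circles were not well above background. The grey diamonds of an age stay close together while the blue circles fall far below them for Slc26a4, Rhcg, Atp6v0a4 and Atp6v1b1, and above them for Slc4a1.

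With age the probes that passed did not share a direction. Slc26a4 was higher at 7 days than at 3 days. Atp6v1b1, Rhbg and the brighter Slc4a1 probe were lower, and the other probes did not pass. In a fit over the Cy/Cy, Cy/+ and +/+ reference pools with the pool as a block, 1 of the 10 probes was higher at 7 days, where 5.3% of all probes were, and 3 were lower, where 4.38% were. The reference values come from the same arrays as those of the mutants, so the 3 pools of an age are not independent repeats.

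Slc26a4 had a log2 signal of 13.80 at 7 days and 12.69 at 3 days in Cy/Cy kidneys, 13.75 and 12.42 in Cy/+ kidneys, and 13.68 and 13.05 in the reference. All 3 pools were thus higher at 7 days, by 1.11, 1.33 and 0.63, and the mean difference was 1.02 ± 0.13 (SE, n = 3, 2.03-fold, adjusted p = 0.0212). Atp6v1b1 had signals of 7.90 at 7 days and 8.26 at 3 days in Cy/Cy, 7.70 and 8.36 in Cy/+, and 8.16 and 8.97 in the reference, a mean difference of -0.61 ± 0.10 (adjusted p = 0.0277).

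Rhbg, the basolateral ammonia transporter, was lower at 7 days in every pool, by -0.40 in Cy/Cy, -0.38 in Cy/+ and -0.53 in the reference (mean -0.44 ± 0.07, SE, n = 3, adjusted p = 0.0272). The brighter Slc4a1 probe differed by -0.41, -0.34 and -0.71 (mean -0.49 ± 0.09, adjusted p = 0.0349), while the dimmer one differed by 0.10 ± 0.07 (adjusted p = 0.378), so that the probes of this gene did not share a direction here. Of 11 erythroid genes measured, 2 fell with age, Alas2 (-0.88, limma adjusted p = 0.0159) and Epb4.2 (-0.52, adjusted p = 0.0202). The others did not pass, and the list's median was -0.19, against 0 over all probes. Rhcg (-0.14), Foxi1 (0.15), Car2 (-0.24), Atp6v0a4 (0.23) and Car4 (0.30) did not pass.

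Among the other pump subunits 1 of 22 rose with age, Atp6v1e1 (0.56, adjusted p = 0.0207), and none fell. Insrr, the alkali-sensing receptor of base-secreting cells, was the only 1 of 16 other genes of intercalated cells to pass, and it rose (0.72, adjusted p = 0.0195). Leaving out a pool affected the calls with age unequally. Without the Cy/+ pool 1 member probe was higher and 3 were lower, as before (Slc26a4 0.87, limma adjusted p = 0.0115). Of all probes, 8.71% were higher and 8.37% lower in that fit. Without the reference pool no member passed, and 0% of all probes did, with Slc26a4 at 1.22 (adjusted p = 0.0764). Without the Cy/Cy pool no member passed either, with Slc26a4 at 0.98 (adjusted p = 0.067). There 0.227% of all probes were higher and 0.165% lower. The authors' processed signals, scaled to their 75th percentile, left 1 member past the threshold, Atp6v1b1 (-0.83, adjusted p = 0.0466). Of all probes, they called 2.53% as higher and 1.41% as lower.

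**Figure D4:**
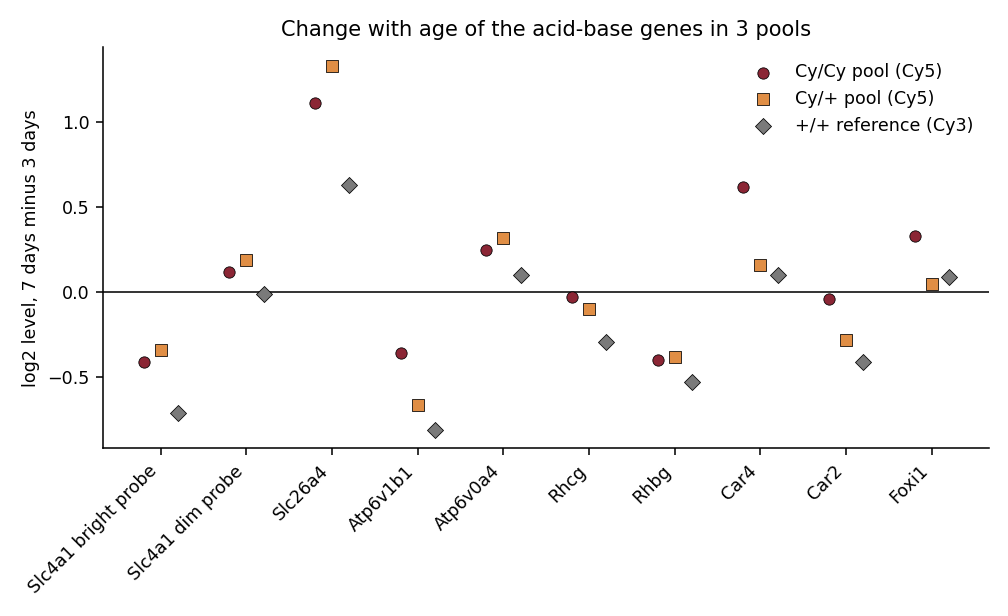
Log2 level at 7 days minus that at 3 days (vertical axis) for each probe, in the Cy/Cy pool (dark red circles, Cy5), the Cy/+ pool (orange squares, Cy5) and the +/+ reference (grey diamonds, Cy3). Slc26a4 lies above 0 in all 3 pools (1.11, 1.33 and 0.63), and Atp6v1b1, Rhbg and the brighter Slc4a1 probe lie below it in all 3.

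The difference of each mutant from its own reference can also be read at each age. On the 3-day arrays 10 of the 10 probes had ratios below 0 in Cy/Cy kidneys (median -0.37) and 9 in Cy/+ kidneys (median -0.56), against 48.3% and 49.6% of all probes. On the 7-day arrays 6 did in Cy/Cy (median -0.16) and 8 in Cy/+ kidneys (median -0.30), against 47.1% and 48.3%. With 1 array per genotype and age, the difference between ages in these ratios was not tested.

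Across the 8 channels of the 4 mutant arrays, some members followed each other closely. The centred log2 levels of Rhbg and the brighter Slc4a1 probe correlated at r = 0.958, those of Atp6v1b1 and Rhbg at 0.922, and those of Rhcg and the brighter Slc4a1 probe at 0.874. At the other end Slc26a4 ran against Car2 (r = -0.627) and Atp6v1b1 (-0.552). These are descriptions over 8 channels that share arrays, pools and ages. The genes whose levels were most like the mean of the 9 members, among 21396 other genes, were Xrcc1 (r = 0.991), the transcript listed as BE107890 (0.99), Olfm1 (0.988), MGC116147 (0.987) and LOC684143 (0.986). Their mean log2 ratios were -0.27, -0.38, -0.54, -0.28 and -0.63 in Cy/+ kidneys. These genes were picked over the same channels that form the ratios, so the ratios are no separate result.

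Promoter windows (250 bases before to 50 after the start of the gene, RefSeq, rat build GRCr8) were at hand for 7 of the 9 genes; Slc4a1 and Car2 had none. Foxi1 is a forkhead factor, and the forkhead core TGTTTA was searched on both strands (TAAACA on the other). It was found in 1 of the 7 windows, that of Atp6v1b1, and in 13.7% of all 33469 windows of the same length. The match begins 93 bases before the start. The windows of the 4 members that fell in Cy/+ kidneys and had one are shown, with the match in capitals, 5′ to 3′ on the strand of the gene: Atp6v1b1 at chr4:117781194-117781493 (plus), Rhcg at chr1:142965113-142965412 (minus), Rhbg at chr2:176015100-176015399 (minus) and Car4 at chr10:70325108-70325407 (plus).
Atp6v1b1: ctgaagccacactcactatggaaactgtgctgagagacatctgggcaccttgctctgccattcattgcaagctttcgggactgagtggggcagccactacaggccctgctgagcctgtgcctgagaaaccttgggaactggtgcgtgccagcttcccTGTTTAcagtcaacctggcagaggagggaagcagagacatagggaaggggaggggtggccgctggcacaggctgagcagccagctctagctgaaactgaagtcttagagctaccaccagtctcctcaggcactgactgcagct
Rhcg: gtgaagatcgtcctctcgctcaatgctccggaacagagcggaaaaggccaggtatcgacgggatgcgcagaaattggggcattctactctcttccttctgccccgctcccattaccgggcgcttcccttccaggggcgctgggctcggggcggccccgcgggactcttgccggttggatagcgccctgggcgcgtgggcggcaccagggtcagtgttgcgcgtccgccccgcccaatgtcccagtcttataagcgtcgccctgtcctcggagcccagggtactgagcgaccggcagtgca
Rhbg: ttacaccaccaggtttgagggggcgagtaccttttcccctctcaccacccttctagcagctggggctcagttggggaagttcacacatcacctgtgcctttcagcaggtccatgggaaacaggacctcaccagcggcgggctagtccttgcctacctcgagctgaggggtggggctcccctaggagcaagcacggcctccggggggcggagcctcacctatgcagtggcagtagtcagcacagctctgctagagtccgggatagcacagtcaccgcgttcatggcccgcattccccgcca
Car4: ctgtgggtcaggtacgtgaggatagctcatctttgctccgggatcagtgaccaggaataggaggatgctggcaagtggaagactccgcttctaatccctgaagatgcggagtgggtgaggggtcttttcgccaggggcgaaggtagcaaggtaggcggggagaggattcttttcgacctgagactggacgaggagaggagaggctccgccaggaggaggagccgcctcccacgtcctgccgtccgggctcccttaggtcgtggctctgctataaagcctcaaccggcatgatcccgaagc
Their GC content was 57.3%, 65.7%, 62% and 59.7%, against a median of 51.7% over all windows. A match is a run of letters and not a binding site, and the absence of one in the other windows says nothing of Foxi1.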

How the data were processed

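The members and gene lists were chosen with earlier results of these data known, although the rule for the members uses names alone. Per the labels, pooled kidney RNA was amplified and labelled with Cy3 or Cy5, with no dye swap. Mean spot signals and local backgrounds were deposited as raw intensity, per the file headers (Agilent Feature Extraction 9.5.1.1, an older version being named in the series' design text). A log10 ratio of the dye-normalized signals, Cy5 divided by Cy3, was deposited for each spot, and it equals the series table's value. The p-value deposited with it is the scanner software's own.

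The mean signals, read in R 4.3.3 with limma 3.58.1 and the package data.table (version 1.17.8), were corrected with normexp (offset 50) and normalized by loess, with control and flagged spots at weight 0 and spots of a probe averaged. A probe was kept if 2 or more arrays had it well above background in Cy5 or Cy3, with complete values on all arrays (30896 of 41012), and 65% to 74.8% of spots were well above background in a channel. The number of arrays limits the precision. Mutant ratios were tested against 0 in 1 fit of the 4 mutant arrays (2 residual degrees of freedom, prior 4.6), which leaves out the spread of the reference, and against the arrays labelled +/+ with age as a term (prior 3.31). Ages were compared on Aquantile-normalized channels (prior 3.94). The threshold was a Benjamini-Hochberg adjusted p of 0.05 over all probes kept. A gene of a list was read by its brightest probe. All members are named, and of each list those past the threshold (at most 5, the largest first), or else at most 2; a further gene past the threshold is not reported here. The fits were tested on simulated data. Alternatives were the software's log ratio, median centring, other filters, 1 row per gene, other terms, and each array or pool left out.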

Additional observations from a re-analysis of the deposited data

Results flagged for a closer look

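The ratios of Slc26a4 to its reference differed in sign between the 2 ages, and those at 7 days were small. Both 7-day mutant ratios were above 0 (0.15 in Cy/Cy and 0.03 in Cy/+ kidneys) and both 3-day ratios below it (-0.37 and -0.61), a mean of 0.09 against -0.49 and a difference of 0.58 on the log2 scale. The difference was not tested, because each genotype had 1 array per age, and age and slide cannot be told apart. The gene was flagged by these signs alone, and the share of all probes with such signs was not counted.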

How the results depend on the processing

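The labels give no replicate numbers, and the arrays pair only by age, which is also the slide. With slide (age) as a block, 4853 probes passed in Cy/+ against their reference in place of 2427, 15 in Cy/Cy in place of 0, and Slc26a4 passed in Cy/+ kidneys (-0.29, adjusted p = 0.0449). Of 597 values of the acid-base genes under alternatives, 524 kept their direction and side of the threshold, 37 lost the call, 12 gained one and 24 changed sign. Members had no call to lose in Cy/Cy against its reference or against Cy/+. In Cy/+ against its reference, of 11 alternatives, the call was lost in 2 for the brighter Slc4a1 probe and 3 for Atp6v1b1. For Rhcg, Rhbg and Car4 it was lost in 4 each. With age, of 8 alternatives, it was lost in 2 for Atp6v1b1 and in 3 each for Slc26a4, Rhbg and the brighter Slc4a1 probe. For Cy/+ the software's log ratio called 0 probes, all 6 arrays in 1 fit 10, and leaving out an array 797 to 3183. For Cy/Cy the fits without a filter, with a stricter filter and with 1 row per gene each called 2, and those without an array 0 to 60; for Cy/Cy minus Cy/+ these called 0 to 211. Median centring called 15404 probes in Cy/+ (12358 higher and 3046 lower), 13280 in Cy/Cy (10155 higher and 3125 lower) and 9 in Cy/Cy minus Cy/+. Against the arrays labelled +/+, leaving out an array gave 3166 to 11511 calls for Cy/Cy (8942 with all) and 3666 to 11679 for Cy/+ (9157 with all), and the software's log ratio turned the split to 6385 higher and 5083 lower for Cy/Cy (3266 and 5676 otherwise) and 6356 and 4998 for Cy/+ (3398 and 5759), with the median of all probes at 0.23 and 0.22. With age, 2992 probes passed, against 1219 from the processed signals, 0 without the reference pool, 5276 without the Cy/+ pool and 121 without the Cy/Cy pool. Signs changed under median centring for Slc26a4 (0.34) and Atp6v0a4 (0.24) in Cy/+, and for the brighter Slc4a1 probe (0.02), Slc26a4 (0.42), Atp6v0a4 (0.19), Rhbg (0.13), Car2 (0.45, adjusted p = 0.0156) and Car4 (0.23) in Cy/Cy kidneys. For Atp6v0a4 median centring also turned Cy/Cy minus Cy/+ to -0.05. Signs also changed as single arrays were left out, with ranges of -0.61 to 0.03 for Slc26a4 in Cy/+; of -0.37 to 0.15 for Slc26a4, -0.26 to 0.12 for Foxi1, -0.22 to 0.08 for Car2 and -0.46 to 0.00 for Car4 in Cy/Cy; and, in Cy/Cy minus Cy/+, of -0.12 to 0.15 for the dimmer Slc4a1 probe, -0.14 to 0.50 for Slc26a4, -0.07 to 0.26 for Atp6v1b1, -0.15 to 0.22 for Atp6v0a4, -0.02 to 0.27 for Rhcg and -0.16 to 0.21 for Foxi1. A fit without an array leaves a genotype with 1, which is assumed to vary like the others. The causes were not tested. Signal near background limits Atp6v1b1 in Cy5 of the arrays labelled +/+ and the dimmer Slc4a1 probe in Cy5 of the 3-day Cy/+ array.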
